A study of Mus musculus with 6 samples.

Results

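Hox cluster genes encode transcription factors that bind DNA through a homeodomain and are known for setting position along the body axis. They stand in 4 clusters, A to D, and each gene's number gives its place in the cluster. In blood formation, several genes of clusters A and B are known to be active in stem and early progenitor cells and to be shut down as cells mature. Their activity is known to depend on trithorax-type activators such as the histone methyltransferase encoded by Kmt2a, on repression by the Polycomb group, and, at their target genes, on cofactors of the Pbx and Meis families. Here the Hox genes were taken as every probe set annotated with a single symbol made of Hox, a cluster letter and a number, whatever its signal. This gave 48 of 45101 probe sets, for 33 of the 18193 genes measured under a single symbol and of the 39 Hox genes in the reference gene table. The other Hox genes were not analysed here, and 3 probe sets annotated with several Hox symbols were left out.

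The study compared 2 subsets of red cell precursors, S1 and S3, which were sorted from the fetal livers of Balb/C mouse embryos by flow cytometry with antibodies to CD71, through which cells take up iron, to Ter119, which marks maturing red cells, and to other lineages. S1 is the less mature and S3 the more mature subset. Cells of each subset were collected on 3 days, and the amplified RNA of each collection was hybridised to 1 oligonucleotide array, giving 3 arrays per subset. No treatment or genetic change was applied to either subset. The developmental stage label gives embryonic day 12.5 for the S1 arrays and 13.5 for the S3 arrays, whereas the source label gives day 13.5 for all 6. Under the stage label, embryo age and subset cannot be told apart. Each array measured RNA pooled from sorted cells, so that fewer cells containing a transcript and less of it per cell cannot be told apart.

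The values are log2 signals scaled by the submitters to control transcripts. The background of an array was set at the 95th percentile of its 27 probe sets for bacterial genes, which lay between 1.01 and 1.74, and between 57.2% and 63.1% of all 45037 probe sets that are not controls read above it. The amplified RNA differed in its reach toward the 5′ end of β-actin. The 5′ control minus the 3′ control was between -2.08 and -2.59 on S1 replicates 1 and 2 and S3 replicate 2, and between -0.45 and -0.56 on the other 3 arrays. Of the erythroid marker genes 6 were measured, among them Slc4a1, Alas2 and Klf1, and all 6 read above background on every array of both subsets, with a log2 summed signal of 11.85 to 12.16 in S1 and 12.81 to 13.07 in S3. The 6 measured progenitor markers, which include Kit, Cd34 and Flt3, gave 7.15 to 8.59 in S1 and 3.50 to 4.66 in S3. Of these 6, 4 read above background on every S1 array, 1 on every S3 array and 1 on no array. The highest S1 mean among them was 7.68, and the brightest genes weigh most in such a sum. Hepatocyte transcripts also read above background on every array, for 4 of 4 genes measured, with summed signals of 7.77 to 8.10 and 7.64 to 9.60. Mesenchymal markers, from a cell type in which Hox genes are active, had summed signals of 4.75 to 5.43 in S1 and 4.82 to 5.53 in S3, ranges that overlap.

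Most Hox probe sets gave no signal above the bacterial control background in either subset. Of the 48, 29 (60.4%) read above background on none of the 6 arrays, compared with 22.6% of all probe sets. Signal above background was found on 1 array for 10, on 2 arrays for 4, on 3 arrays for 1, on 5 arrays for 2 and on all 6 arrays for 2 (4.17%, compared with 46.3% of all probe sets). Counted by gene, 16 of the 33 Hox genes had a probe set above background on some array and 17 had none. By its definition as a percentile, this background lies below the highest bacterial control of each array. A probe set with no more signal than the controls can therefore pass on some array. Signal on only 1 or 2 arrays, as for 10 and 4 Hox probe sets, thus does not show that the gene was transcribed. Within single arrays, 9, 10 and 5 Hox probe sets were above background in S1 replicates 1, 2 and 3, and 7, 6 and 6 in the corresponding S3 arrays, so the counts of the subsets overlapped. These are 10.4% to 20.8% of the Hox probe sets. The median Hox signal was 0.14, -0.27 and 0.36 on the S1 arrays and -0.34, -0.62 and -0.28 on the S3 arrays. The median of the bacterial controls was -0.4, -1.29 and 0.47 on the S1 arrays and -0.97, -1.63 and -0.53 on the S3 arrays. The Hox median thus lay above that of the controls on every array but S1 replicate 3, and below the background on every array. A signal not above background gives only an upper limit, and does not show that the transcript was absent.

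**Figure D1:**
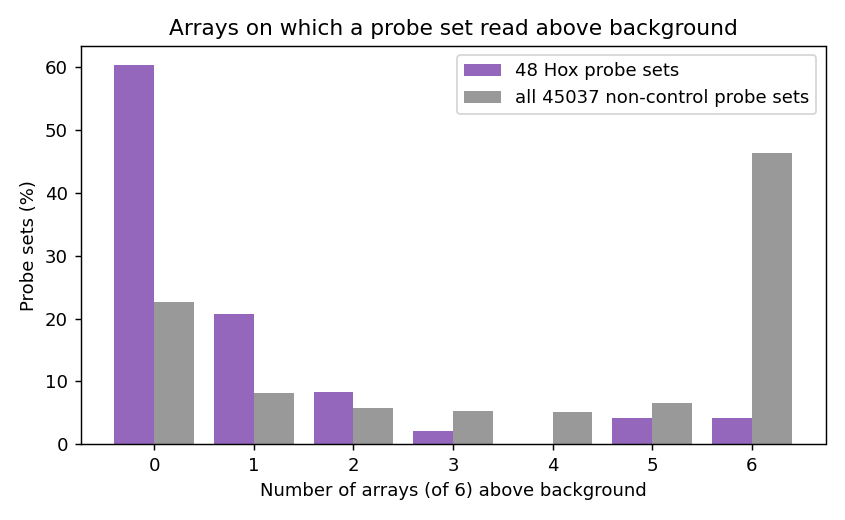
Share of probe sets (percent) by the number of arrays, from 0 to 6, on which they read above the bacterial control background, for the 48 Hox probe sets and for all 45037 probe sets that are not controls. The Hox bars are highest at 0 arrays (60.4%), while the bars for all probe sets are highest at 6 arrays (46.3%).

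Every cluster had members of both kinds. Cluster A had 7 of 16 probe sets above background on at least 1 array, cluster B 4 of 11, cluster C 5 of 11 and cluster D 3 of 10. By position, the count was 6 of 16 for genes numbered 1 to 4, 5 of 15 for genes numbered 5 to 8 and 8 of 17 for genes numbered 9 to 13. These shares are descriptions over few probe sets and no difference between them was tested. They include probe sets above background on a single array, which a probe set with no more signal than the bacterial controls can also reach. Antisense transcripts of the clusters were represented by 5 probe sets for Hoxa11os, Hoxb5os and Hoxd3os1, and none read above background on any array.

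**Figure D2:**
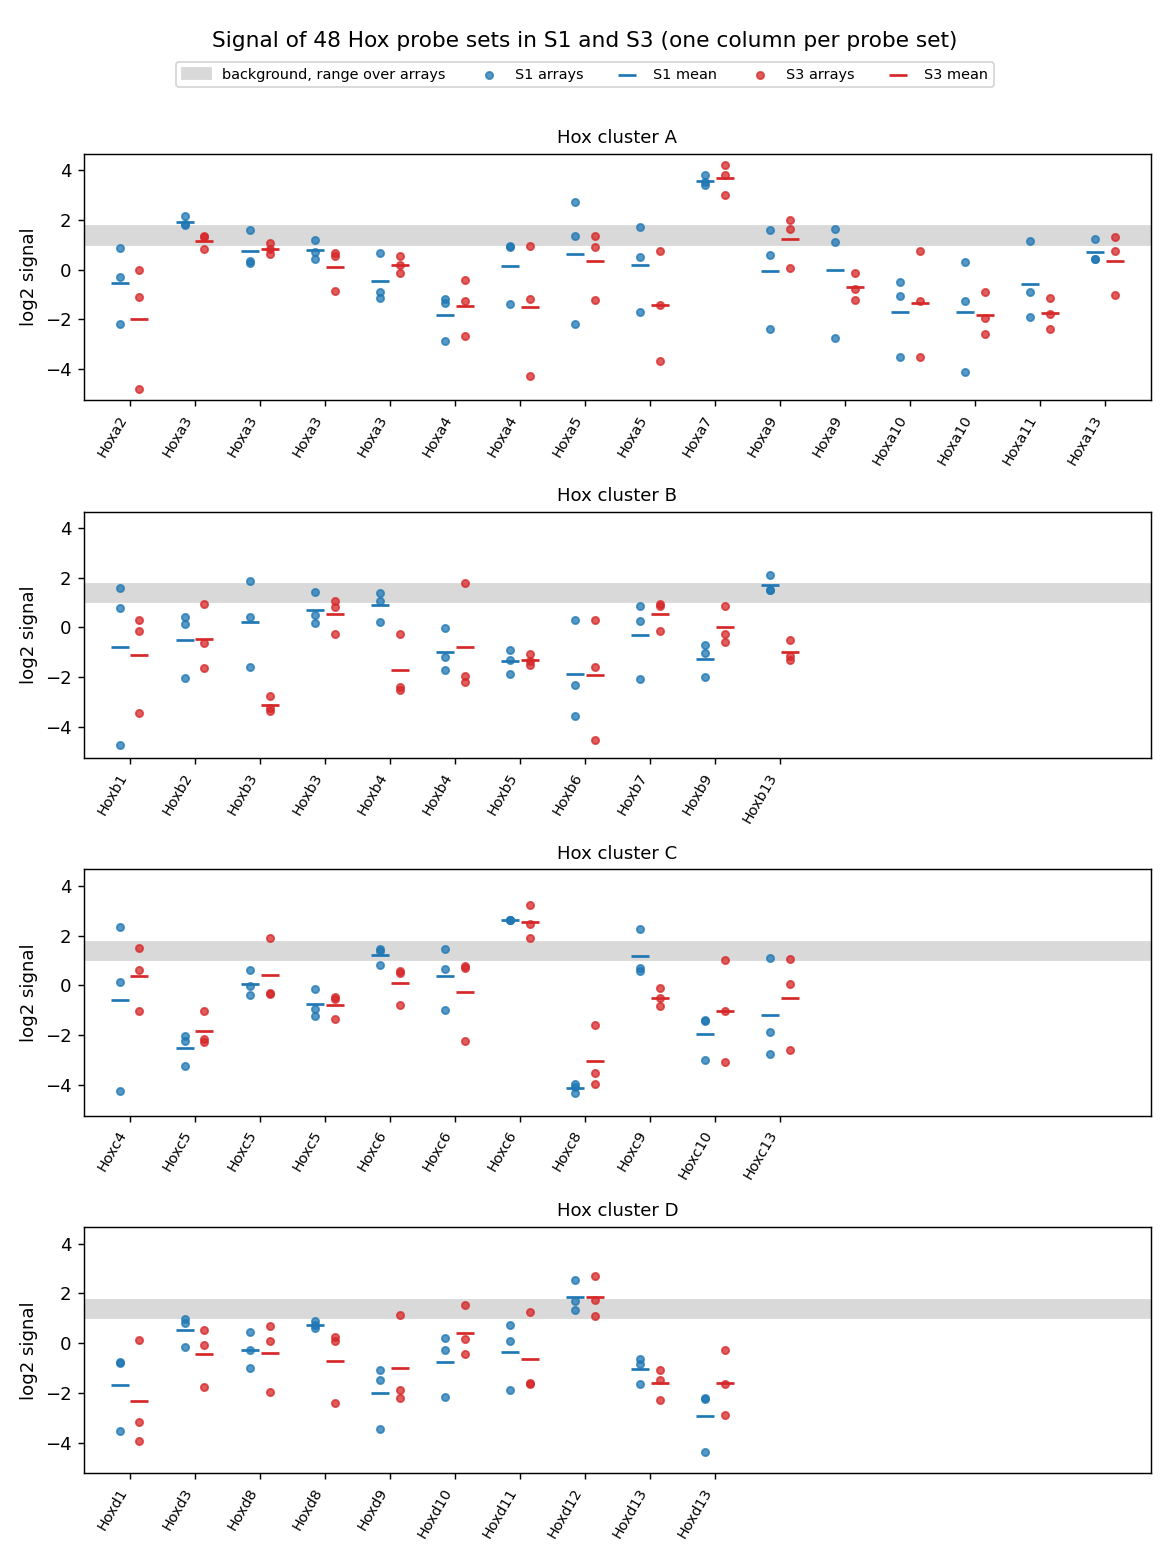
Log2 signal of each of the 48 Hox probe sets, one column per probe set and one panel per cluster, with S1 arrays in blue, S3 arrays in red, a short line at each subset mean (n = 3 arrays) and a grey band for the background, which ran from 1.01 to 1.74 over the arrays. Most points lie in or below the band, and Hoxa7 and a single Hoxc6 probe set have all of their points above it.

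Hoxa7 and Hoxc6 were the 2 Hox genes read above background on all 6 arrays. Hoxa7, a gene of the middle of cluster A known to be active in myeloid and erythroid progenitors, gave a log2 signal of 3.42, 3.52 and 3.79 in S1 and of 3.01, 4.20 and 3.78 in S3. The S3 values spanned those of S1. The means were 3.58 ± 0.19 (SD, n = 3) and 3.67 ± 0.60 (SD, n = 3), a change of 0.09 ± 0.50 (SE) in S3 with a 95% interval from -1.07 to 1.25 and limma's adjusted p = 0.955. The interval leaves room for a change of about 1 log2 unit in either direction.

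Hoxc6, known for its part in patterning the thorax, had 3 probe sets that differed in signal. On probe set 1427454_at the S1 arrays read 2.64, 2.63 and 2.62 and the S3 arrays 3.21, 1.91 and 2.46. The S1 values were nearly equal, while the S3 values lay on both sides of them. The change was -0.10 ± 0.54 (SE), with a 95% interval from -1.34 to 1.14 and limma's adjusted p = 0.952. Of the other Hoxc6 probe sets, 1427361_at read above background on 1 S1 array and on no S3 array, with means of 1.23 in S1 and 0.09 in S3, and 1427362_x_at on none.

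A further pair of genes read above background on every array of a single subset. Hoxd12, a gene near the posterior end of cluster D that is known for limb patterning, gave 2.53, 1.71 and 1.33 in S1 and 1.08, 1.74 and 2.70 in S3. It was above background on 2 S1 arrays and 3 S3 arrays, and the subsets overlapped over nearly their whole range. The means were 1.86 ± 0.61 (SD, n = 3) and 1.84 ± 0.81 (SD, n = 3), and the change of -0.02 ± 0.65 (SE) had a 95% interval from -1.52 to 1.49 and limma's adjusted p = 0.995.

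Hoxa3, a gene of the anterior part of cluster A known for pharyngeal development, gave 1.81, 1.83 and 2.16 in S1 and 1.35, 1.32 and 0.82 in S3 on probe set 1427433_s_at. It was above background on 3 S1 arrays and 2 S3 arrays, and every S3 value lay below every S1 value. The means were 1.93 ± 0.20 (SD, n = 3) and 1.17 ± 0.30 (SD, n = 3). The change of -0.77 ± 0.53 (SE), 95% interval -2.0 to 0.47, did not pass limma's test, with an adjusted p of 0.487. The other 3 Hoxa3 probe sets overlapped between subsets, with means of 0.74, 0.78 and -0.46 in S1 and 0.85, 0.11 and 0.20 in S3, and of these 1431392_at was above background on 1 array and the others on none.

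Promoter sequence is shown for a Hox gene at each end of this range, Hoxa7, read on all 6 arrays, and Hoxd13, the most posterior gene of cluster D, whose 2 probe sets read above background on no array. Hoxd13 was chosen because its window has the most CG among Hox genes read on no array. Each window runs from 250 bases before to 50 after the annotated start, 5′ to 3′ along the gene, as given by RefSeq on GRCm38.p6. That of Hoxa7 is chr6:52218524-52218823 on the minus strand and that of Hoxd13 chr2:74667975-74668274 on the plus strand. Capitals mark CG, the dinucleotide at which DNA is methylated, which reads the same on both strands.
Hoxa7: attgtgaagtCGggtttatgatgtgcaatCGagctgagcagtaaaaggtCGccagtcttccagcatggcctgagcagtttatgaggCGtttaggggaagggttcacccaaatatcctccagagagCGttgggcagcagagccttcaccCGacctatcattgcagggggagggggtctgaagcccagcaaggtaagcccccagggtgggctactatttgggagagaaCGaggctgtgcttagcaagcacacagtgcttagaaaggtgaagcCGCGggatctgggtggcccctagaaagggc
Hoxd13: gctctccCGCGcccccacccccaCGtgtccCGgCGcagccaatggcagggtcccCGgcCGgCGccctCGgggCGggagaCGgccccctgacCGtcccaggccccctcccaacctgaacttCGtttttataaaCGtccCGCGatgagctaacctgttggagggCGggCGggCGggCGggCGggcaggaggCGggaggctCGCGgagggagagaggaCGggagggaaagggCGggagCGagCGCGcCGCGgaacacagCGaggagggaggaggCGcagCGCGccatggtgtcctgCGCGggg
The Hoxa7 window holds 9 CG and the Hoxd13 window 37. A window was found for 19 of the 33 measured Hox genes, 21 windows in all, and every one holds a CG, as do 94.6% of the 32851 windows of all genes. The Hox windows have a median of 15 CG (range 4 to 45), and 18 of 21 have more than the median of 7 over all genes. The median was 15 over 11 windows of Hox genes read above background on some array and 16 over 10 windows of Hox genes read on none, with overlapping ranges of 4 to 45 and 4 to 37. The genes read on some array include genes read on a single array, where signal like that of the bacterial controls can also pass. The CG counts describe the sequence and no methylation was measured on the arrays.

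No Hox probe set was called different between S3 and S1. The test was limma on each probe set whose mean over the 6 arrays lay above the 40th percentile, a log2 signal of 1.12, with adjusted p under 0.05 over the 27022 probe sets that passed. Only 4 Hox probe sets passed this filter, those of Hoxa7, Hoxc6, Hoxd12 and Hoxa3 described above, and the other 44 did not. Of the 4, 0 were called by limma, where 8.28% of all probe sets tested were called. An unadjusted p under 0.05 was found for 0 of the 4, where 5991 of the 27022 had one. With only 4 probe sets, a count of 0 can arise at the 8.28% of all probe sets, so nothing particular to the Hox genes is drawn from it. The 2237 calls over all genes were 436 higher in S3 (1.61%) and 1801 lower (6.66%). The split depends on the scaling of the arrays, being 748 to 1144 with each array centred on its median, 1096 to 1412 after quantile normalisation and 847 to 1278 with a common trimmed mean. The median change of the 4 Hox probe sets was -0.06 and that of all probe sets tested -0.24, and median centring moved these to 0.17 and -0.01. The sign of the Hox median thus follows the scaling and no direction is drawn from it.

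Without the filter all 48 Hox probe sets entered the fit, and again 0 were called by limma, where 3.92% of all 45037 were (0.779% higher and 3.14% lower in S3). An unadjusted p under 0.05 was found for 3 Hox probe sets (6.25%), all lower in S3, compared with 16% of all probe sets. The mean was lower in S3 for 28 of the 48 (58.3%), a share close to the 59.8% of all probe sets. All S3 values lay below all S1 values for 7 Hox probe sets (14.6%, where 16.8% of all probe sets did so) and above them for 1, Hoxb9 (2.08%, where 4.96% did so), against 21.7% of all probe sets in either direction. These shares were near or below the background. The 7 were probe sets of Hoxa3, Hoxb3, Hoxb4, Hoxb13, Hoxc6, Hoxc9 and Hoxd8. The Hoxb9 and Hoxd8 probe sets among them read above background on no array. An exact permutation test of 3 arrays against 3 cannot give a two-sided p below 0.10.

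The 3 Hox probe sets with an unadjusted p under 0.05 all belong to cluster B and are named after their values were seen. Hoxb13, the most posterior gene of that cluster, known for its role in prostate and hindgut, gave 2.11, 1.49 and 1.5 in S1 and -1.14, -1.31 and -0.50 in S3. It was above background on 2 S1 arrays and on no S3 array. In the fit without a filter the difference was -2.68 ± 0.70 (SE), 95% interval -4.27 to -1.10, with limma's adjusted p = 0.0749, and 0.052 with the array's reach toward the 5′ end as a block. The S3 values are not above background and give only an upper limit, so the size of the difference is not known. With every value raised to its array's background the adjusted p was 0.611.

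Hoxb4, known for promoting the self-renewal of blood stem cells, gave 0.23, 1.40 and 1.06 in S1 and -2.38, -2.52 and -0.24 in S3 on probe set 1451761_at. Of these 6 values 1 was above its array's background, so most of the difference in log2 signal lies below it, and limma's adjusted p without a filter was 0.169. The other Hoxb4 probe set, 1460379_at, had means of -0.97 and -0.78, overlapped between the subsets, and read above background on S3 replicate 3 (1.80) and on no S1 array. Hoxb3, its neighbour in the cluster, gave 1.86, -1.58 and 0.44 in S1 and -3.21, -2.75 and -3.36 in S3 on probe set 1427605_at, with 1 value above background and limma's adjusted p = 0.123. Its other probe set, with means of 0.71 and 0.54, overlapped between the subsets and read above background on no array.

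Genes of cluster A known for their activity in blood progenitors were also near background, and are named after their values were seen. Hoxa9, known for driving progenitor growth when overexpressed in leukaemia, had means of -0.07 ± 2.07 (SD, n = 3) in S1 and 1.22 ± 1.02 (SD, n = 3) in S3 on probe set 1421579_at, above background on 1 S1 and 2 S3 arrays. Its second probe set had means of -0.01 and -0.70 and read above background on no array. Hoxa10, another gene of progenitors, read above background on no array with either probe set, with S1 means of -1.70 and -1.69 and S3 means of -1.33 and -1.81. Hoxa5 read above background on 2 S1 arrays and no S3 array with 1443803_x_at, whose S1 values of 1.34, -2.19 and 2.72 enclosed the S3 values of 0.89, -1.21 and 1.36. The other Hoxa5 probe set, 1448926_at, had means of 0.18 in S1 and -1.44 in S3, overlapped between the subsets and read above background on no array. Outside cluster A, Hoxc8 read above background on no array, with means of -4.12 in S1 and -3.03 in S3.

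**Figure D3:**
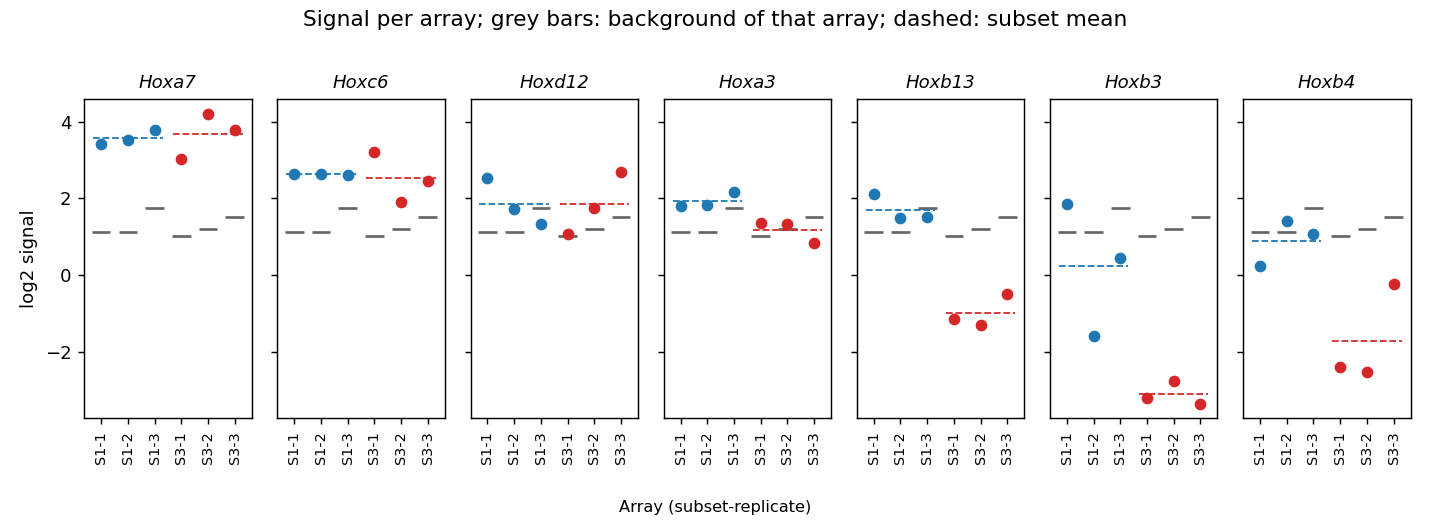
Log2 signal by array for the Hox genes that read above background on every array of S1 or of S3 and for the cluster B genes discussed after their values were seen, with the background of each array marked. Hoxa7 and Hoxc6 stay above the background on all 6 arrays, Hoxd12 and Hoxa3 lie near it, and the S3 values of the plotted Hoxb13, Hoxb4 and Hoxb3 probe sets lie below it.

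The spread between arrays limited what could be seen for the Hox genes. The median SD within a subset was 1.13 over the Hox probe sets, 0.89 over all probe sets and 0.56 over those above background on all arrays. Over the 48 Hox probe sets the half-width of the 95% interval of the change had a median of 2.14 log2 units and ran from 1.29 to 3.91. The reach toward the 5′ end of β-actin was also used as a block. The 4 Hox probe sets that passed the filter then had limma's adjusted p-values from 0.373 for Hoxa3 to 0.943 for Hoxd12. Of these 4, 0 were called, where 8743 (32.4%) of all probe sets tested were.

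Cofactors of Hox proteins were read above background more widely, with 6 of 8 measured genes above it on every S1 array and 4 on every S3 array. For these 8 genes of the Pbx, Meis and Pknox families, 0 of the 12 tested probe sets were higher and 2 lower in S3 (16.7%, where 8.28% of all probe sets were called). Both belong to Pbx2, whose protein pairs with Hox proteins on DNA, so this share counts a single gene more than once. When only the brightest probe set per gene was tested, 1 of 6 cofactor genes was called (16.7%), close to the 15.3% of all genes. On 1418893_at Pbx2 gave 9.06, 8.78 and 9.11 in S1 and 8.01, 7.89 and 7.92 in S3, a change of -1.04 with limma's adjusted p = 0.0244, and 1418894_s_at changed by -1.15 (adjusted p = 0.0236). The subsets did not overlap on either probe set. The third Pbx2 probe set changed by -1.04 and missed the threshold (adjusted p = 0.0641). The calls were lost with median centring (changes of -0.81 and -0.92, adjusted p = 0.208 and 0.12) and whenever an array other than S3 replicate 2 was left out (adjusted p from 0.0622 to 0.108). After quantile normalisation 2 cofactor probe sets were called higher and 1 lower. Pbx3 went the other way, with changes of 0.67 on 1447640_s_at, where the subsets did not overlap, and 1.00 on 1421193_a_at, where they did. Neither passed (limma's adjusted p = 0.121 and 0.291). With the reach toward the 5′ end as a block both were called higher in S3 (limma's adjusted p = 0.0247 and 0.0422).

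Meis1, known as a partner of Hoxa9 in blood progenitors, had means of 2.26 ± 0.41 (SD, n = 3) in S1 and 0.81 ± 0.94 (SD, n = 3) in S3 on 1450992_a_at, a difference of -1.45 ± 0.67 (SE) that did not pass (limma's adjusted p = 0.258). One S3 value was below background, and the Meis1 difference was -0.96 with values raised to background and -0.92 without S3 replicate 2. On 1443260_at it read above background on 2 S1 arrays and no S3 array, with means of 1.94 and -0.91. Without a filter limma's adjusted p for this probe set was 0.199. It was 0.0332 with the reach toward the 5′ end as a block, where 18.2% of all probe sets were called, and 0.519 with values raised to background. The third Meis1 probe set, 1459423_at, went the other way, with means of 0.62 in S1 and 0.86 in S3, and overlapped between the subsets. The summed signal of the progenitor markers given above was lower in S3 over the same arrays. Granulocyte and monocyte markers had summed signals of 4.62 to 5.40 in S1 and 3.69 to 4.56 in S3, and megakaryocyte markers 6.24 to 7.38 and 8.37 to 8.42. These 3 lists did not overlap between the subsets, and their part in the Pbx2 and Meis1 differences was not tested.

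Most regulators of Hox transcription read above background, with 13 of 15 activators and 17 of 17 Polycomb genes above it on every S1 array and 13 and 16 on every S3 array. Of the regulators' 70 tested probe sets 0 were higher and 3 lower in S3 (4.29%, below the 8.28% of all probe sets). When only the brightest probe set per gene was tested, 4 of 30 were called (13.3%, where 15.3% of all were), all lower. With other scalings regulators were called in both directions, 3 higher and 3 lower after quantile normalisation, 3 higher and 2 lower with a trimmed mean and 1 each with median centring. The 3 called lower among the 70 with the submitters' scaling were single probe sets of Kdm6b, Wdr5 and Rnf2. Kdm6b, a demethylase of the Polycomb mark, gave 9.73, 9.58 and 9.60 in S1 and 8.56, 8.07 and 8.06 in S3 on 1447612_x_at, a change of -1.41 ± 0.20 (SE) with limma's adjusted p = 0.00892. Its other 2 probe sets had S1 means of 2.12 and 2.05, S3 means of 1.63 and 1.27, and did not pass, so the call rests on a single probe set.

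Wdr5, a core subunit of the activating methyltransferase complexes, gave 9.32, 9.34 and 9.51 in S1 and 8.28, 8.15 and 8.27 in S3 (a change of -1.16, limma's adjusted p = 0.0105). Rnf2, the ubiquitin ligase of the Polycomb group, gave 8.74, 8.77 and 8.73 in S1 and 7.82, 7.73 and 7.78 in S3 (a change of -0.97 ± 0.20, SE, limma's adjusted p = 0.0305). The subsets did not overlap for either gene, and a second probe set of each did not pass (adjusted p = 0.298 and 0.202). With median centring all 3 calls were lost (limma's adjusted p = 0.089 for Kdm6b, 0.12 for Wdr5 and 0.265 for Rnf2), with changes of -1.18, -0.92 and -0.74. They were also lost with a trimmed mean (limma's adjusted p = 0.0684, 0.0861 and 0.219). Kdm6b was lost without S1 replicate 1 or 2 (adjusted p = 0.0582 and 0.0541), Wdr5 without S1 replicate 1 or 2 or S3 replicate 3 (0.0581, 0.0592 and 0.0504), and Rnf2 without any 1 of the 6 arrays (0.0578 to 0.122).

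Kmt2a, the methyltransferase that maintains Hox expression, had S1 and S3 means of 7.48 and 7.15 on 1427283_at, a difference of -0.33 ± 0.44 (SE) with limma's adjusted p = 0.763, and differed by -0.46 on 1452377_at (adjusted p = 0.766). On 1427283_at the Kmt2a difference ran from -0.75 without S1 replicate 1 to 0.01 without S1 replicate 3, and on 1452377_at from -1.02 to -0.01 without the same arrays. With the reach toward the 5′ end as a block the differences were -0.61 and -0.89 (limma's adjusted p = 0.138 and 0.119). Within the 3 arrays of longer reach, 1 of S1 and 2 of S3, they were -0.81 and -0.98. Within the 3 arrays of shorter reach, 2 of S1 and 1 of S3, they were -0.40 and -0.80. A subset of 1 array has no spread of its own, so no test is drawn from either split. Ezh2, the methyltransferase of the Polycomb group, had means of 8.90 and 9.08, a difference of 0.17 with limma's adjusted p = 0.905. This difference had no settled sign, being -0.14 without S1 replicate 2, -0.03 without S3 replicate 1, -0.10 without S3 replicate 3 and -0.30 with the reach toward the 5′ end as a block, against 0.63 without S1 replicate 3 and 0.65 without S3 replicate 2. Cdx4, an activator of Hox genes in the embryonic blood lineage, read above background on no array. With the reach toward the 5′ end as a block, 23 of the 70 regulator probe sets were called (32.9%, where 32.4% of all were), 3 higher and 20 lower in S3. Of the 12 cofactor probe sets 6 were called, 2 higher and 4 lower.

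**Figure D4:**
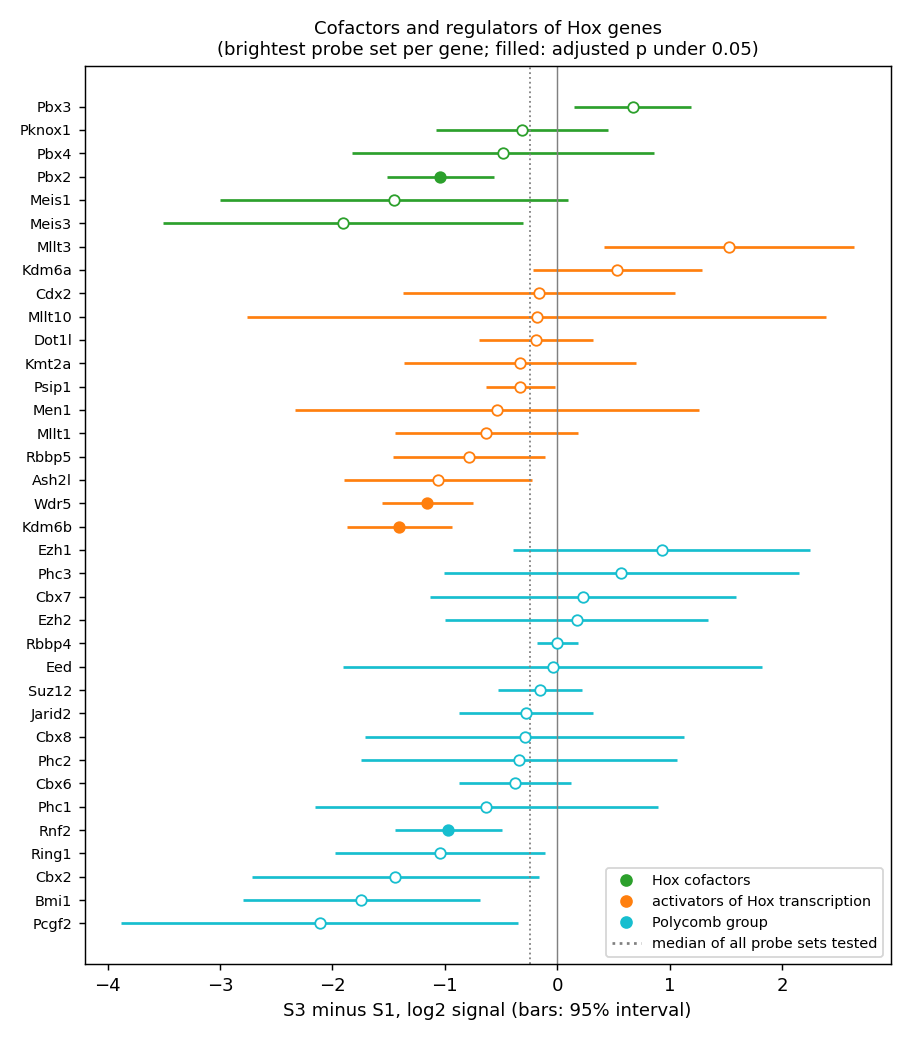
Change in log2 signal, S3 minus S1, with its 95% interval, for the brightest probe set of each cofactor, activator and Polycomb gene that entered the test. Filled points passed limma's adjusted p of 0.05, which were Pbx2, Wdr5, Kdm6b and Rnf2, and the dotted line marks the median change of all probe sets tested (-0.24).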

How the data were processed

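Each of the 6 samples, 3 of S1 and 3 of S3, was measured on 1 array. The deposited values, taken as log2 from their range, are signals that the authors computed with MAS5, per the submitters' processing notes, and normalised to the average of ribosomal RNA, Gapdh and β-actin, per the series' design text. That scaling rests on few transcripts, so median centring, quantile normalisation and a 2% trimmed mean were tried as alternatives. Read depth has no counterpart on arrays, and 3 arrays per subset limit the precision.

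Of 45037 probe sets that are not controls, 34945 carried 1 gene symbol in the platform annotation, 932 several and 9160 none, and all 48 Hox probe sets matched the reference by gene ID. Each probe set was kept separate. Those with a mean above the 40th percentile were fitted with limma 3.58.1 in R 4.3.3 (lmFit, then eBayes, letting the prior variance follow intensity). Tests were two-sided, and p-values were adjusted by Benjamini and Hochberg's method over every probe set fitted. Other alternatives were no filter, a 60th percentile filter, values raised to background, no trend, the brightest probe set per gene, blocks for replicate number or for the reach toward the 5′ end of β-actin, and leaving out each array.

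Hox genes with a probe set above background on all arrays of a subset, or called, were described by array. Of the other lists, called members were named, with Meis1, Kmt2a, Cdx4 and Ezh2 whatever their value. The members, the lists and the division of arrays by reach were chosen with earlier results of these data known. Fits without the filter combined with another choice, and fits within each class of array, were chosen after seeing the data.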

Additional observations from a re-analysis of the deposited data

How the results depend on the processing

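The count of Hox probe sets called stayed at 0 under every alternative run, including the fits without a filter combined with a block for the reach toward the 5′ end, median centring or raised values. The fit within the 3 arrays of longer reach set 1 S1 array against 2 S3 arrays. It takes the spread of the single S1 array from S3, so its counts are not read as results. Within the 3 arrays of shorter reach no probe set of any gene was called by limma (5899 had an unadjusted p under 0.05), so that fit says nothing of the Hox genes. The replicate numbers were not taken as pairs. Deviations of same-numbered arrays correlated at 0.02, 0.39 and 0.41, and S1 replicate 1 correlated best with S3 replicate 2 (0.11). S1 replicate 3 correlated at 0.39 with S3 replicate 1 and at 0.41 with S3 replicate 3, all of longer reach. Deviations from a mean of 3 arrays are tied to each other, so these values cannot show whether same-numbered arrays shared a collection day. The replicate block gave 2942 calls over all probe sets (10.9%), 0 Hox calls, 2 cofactor calls (16.7%) and 4 regulator calls (5.71%). The 2237 calls over all probe sets became 1396 without an intensity trend, 8743 with the block for reach, and 450 to 1713 with 1 array left out. The 2 cofactor calls became 0 with median centring, a trimmed mean or no trend, and 0 to 2 with 1 array left out. They became 6 with the block for reach (2 higher, 4 lower). With the brightest probe set per gene 1 of 6 was called (16.7%, where 15.3% of all were). The 3 regulator calls, all lower in S3, became 6 after quantile normalisation (3 higher, 3 lower) and 5 with a trimmed mean (3 higher, 2 lower). None of the 3 was among the 5 called with a trimmed mean. The regulator count was 5 with the 60th percentile filter, 1 without trend, 23 with the block for reach (3 higher, 20 lower), and 0 to 3 with 1 array left out. The cause was not tested. The median Hox change of -0.06 became 0.17 with median centring and 0.19 with a trimmed mean, and ran from -0.26 to -0.04 with 1 array left out. The 4 Hox probe sets above background on every array of a subset became 2, of Hoxa7 and Hoxc6, against the highest bacterial control, 1, of Hoxa7, against the median of all probe sets, and 4 to 5 with 1 array left out. Signals near the bacterial controls limit what can be said of the other Hox genes.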
